A study of Mus musculus with 2 samples.

Results

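The cells described here were cells of the newborn mouse brain that held transcripts of radial glia while staying under limits on the transcripts of mitosis and of other cell classes. They were picked from raw unique molecular identifier (UMI) counts, each UMI standing for 1 captured transcript. A cell was kept with at least 500 detected genes and at most 10% of its UMIs in mitochondrial genes. It was selected with at least 2 UMIs of Slc1a3 and at least 2 of Pax6, Hes5 and Sox2 together. It also had to hold at most 1 UMI of the astrocyte genes Aqp4, Aldh1l1 and Pla2g7, none of Pdgfra or Eomes, and at most 1 of the neuronal genes Neurod2 and Neurod6. The remaining limits were fewer than 3 UMIs of the proliferation genes Mki67, Top2a and Cenpf, fewer than 2 of Foxj1, Ccdc153 and Tmem212, and fewer than 5 of the endothelial genes Cldn5, Flt1 and Pecam1. This gave 223 cells of the 12846 kept in the series, 111 of 6766 in the WT library and 112 of 6080 in the STING conditional knockout (cKO) library.

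The libraries came from C57BL/6 mice at postnatal day 0. By their labels, the WT library came from WT animals and the cKO library from animals of genotype STINGf/f;Nestin-Cre. The study's text names its control sample both STINGfl/fl and WT, so whether the control carried the floxed allele is not settled. The labels give telencephalic tissue, while the study's methods describe the cerebral cortex. Sting encodes an adaptor of the cytosolic DNA sensing pathway, and Nestin-Cre recombines a floxed gene in neural progenitors and hence in the neurons and glia that descend from them. Microglia and vessel cells do not arise from that lineage. Neither source gives the control Cre, so effects of Cre and of STING loss cannot be told apart. There was 1 library per genotype and the number of pooled animals is not stated in the labels. No test of a genotype difference was therefore possible, and every ratio below compares these libraries with no replicate check. All intervals are 95% intervals that cover counting error only.

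Radial glia are the elongated stem cells of the developing brain wall. Their cell bodies line the ventricle and their long fibres guide migrating neurons. They divide to give neurons, at first directly and through intermediate progenitors, and around birth they turn to making astrocytes, ependymal cells and oligodendrocyte precursors. Notch signalling through Hes genes holds them in the progenitor state, and some leave the cell cycle to become the quiescent stem cells of the adult ventricular wall. Radial glia and young astrocytes share many genes, so no single transcript separates them.

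The selected cells held 664101 UMIs in WT and 839098 in cKO. The median cell had 5664 UMIs and 2526 genes in WT, and 7490 UMIs and 2959 genes in cKO, so the cKO cells were read more deeply. Mitochondrial genes took a median of 4.72% and 4.47% of the UMIs. Xist, the transcript that silences an X chromosome in females, had 1 UMI in the WT cells and 964 in the cKO cells, whereas the Y-linked gene Eif2s3y was at 82.8 UMIs per 1e+06 UMIs (CPM) in WT and at 0 in cKO. Sex and genotype therefore cannot be told apart. Tmem173, the gene of STING, had 0 UMIs in WT and 1 in cKO, so these cells carried too few of its transcripts to check the deletion. The libraries shared 19 barcodes, none of them of a selected cell. The doublet caller Scrublet marked 165 of the 6766 kept WT cells, 4 of them selected, but 0 of 6080 in cKO, where it did not work.

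Slc1a3, a glutamate transporter of radial glia and astrocytes, stood at 1289 CPM in the WT cells and 1499 in the cKO cells. Sox2, a transcription factor of neural stem cells, stood at 797 and 890 CPM. Pax6, a transcription factor of cortical progenitors, stood at 157 and 164 CPM. Hes5, a repressor switched on by Notch, stood at 254 and 217 CPM. These genes chose the cells, so their levels are a description. Sox2 was seen in 107 of 111 WT cells and 112 of 112 cKO cells, while Pax6 was seen in 50 and 65 and Hes5 in 51 and 54. Among Sox2, Pax6 and Hes5, Sox2 was the most widely detected, while Slc1a3 was in every selected cell by the rule. Fabp7, a fatty acid binding protein of radial glia that the rule did not use, was at 4206 CPM in WT and 4014 in cKO. Its spread between cells was wide, from 0 to 283 UMIs per 10000 in WT and from 0 to 341 in cKO, and 11 WT and 9 cKO cells had none. Vim, an intermediate filament of radial glia, was at 986 CPM in WT and 1840 in cKO.

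**Figure D1:**
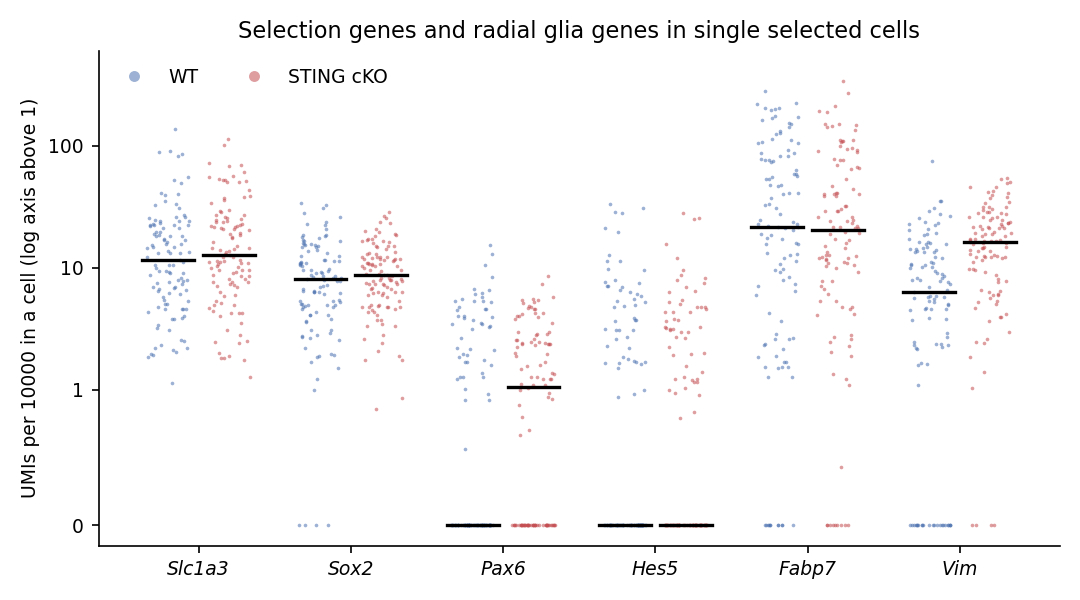
UMIs per 10000 in each selected cell (vertical axis, logarithmic above 1) for Slc1a3, Sox2, Pax6, Hes5, Fabp7 and Vim, with 1 point per cell (111 WT, 112 cKO) and the median as a bar. Slc1a3 and Sox2 fill nearly every cell, Pax6 and Hes5 leave many cells at 0, and Fabp7 spreads from 0 to over 100.

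Hes5 is given with its promoter because it is the Notch readout among the selection genes. The 250 bases before its start lie at chr4:154960673-154960922 on the plus strand of GRCm38.p6, as given by RefSeq. Capitals mark the letters TGGGAA, the core of the motif read by RBPJ, the DNA-binding partner of Notch, on either strand. This window held 2 matches, while that of Nrarp, another Notch target, held none, and 21.6% of 32851 mouse promoter windows of this length held at least 1.
Hes5: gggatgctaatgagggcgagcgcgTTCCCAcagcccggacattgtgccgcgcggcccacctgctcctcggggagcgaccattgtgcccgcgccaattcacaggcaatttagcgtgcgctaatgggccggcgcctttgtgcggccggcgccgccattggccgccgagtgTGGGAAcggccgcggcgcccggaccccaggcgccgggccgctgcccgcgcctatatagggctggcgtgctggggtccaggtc

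The limits set part of the membership. In WT, 43 selected cells sat at the limit of 1 astrocyte UMI and 25 further cells were left out with 2. In cKO these numbers were 38 and 40. At the lower limit of Slc1a3, 21 WT and 6 cKO cells had exactly 2 UMIs, and 41 and 36 cells with 1 UMI were left out for that reason alone. At the limit of 2 proliferation UMIs stood 10 WT and 8 cKO cells, with 5 and 5 left out at 3. When 752 WT and 708 cKO cells under 3000 UMIs were left out and the others thinned to that number, the same rule picked 155 of 6014 WT cells and 201 of 5372 cKO cells.

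Against markers the rule had not used, the name of noncycling radial glia without astrocyte markers held only in part for astrocyte transcripts. For the cell cycle it also held only in part. At least 3 UMIs of the replication genes Mcm2 to Mcm7 and Pcna were held by 40 WT and 43 cKO cells. With every cell thinned to 1000 UMIs, these genes were found in 30.6% of selected WT cells and 29.5% of selected cKO cells. The shares were 29.3% and 25% of microglia and 13.8% and 15.4% of excitatory neurons, both defined below. Without thinning they were 62.2% and 68.8% of selected cells, 76.3% and 78.1% of microglia and 65.1% and 72.1% of the neurons. The list of 23 G1/S and replication genes summed to 1857 CPM in selected WT cells and 1301 in selected cKO cells. In the neurons it summed to 377 and 401 CPM. The G2/M list summed to 780 and 802 CPM in the selected cells and 118 and 173 in the neurons. In microglia it summed to 1740 and 2551 CPM, so microglia are no background free of cycling transcripts. The list of 22 radial glia genes summed to 15657 CPM in the selected WT cells and 18408 in the selected cKO cells. This list does not set the selected cells apart from the cells that failed the astrocyte limit alone, where it summed to 44347 and 37458 CPM. The list of 25 early astrocyte genes also summed to 8982 CPM in WT (8756 to 9213) and 13290 in cKO (13045 to 13539). Its members included Cst3, an extracellular protease inhibitor, at 2662 and 5931 CPM, Apoe, a lipid carrier, at 1143 and 1234 CPM, and Aldoc, a glycolytic enzyme of astrocytes, at 468 and 770 CPM. Gfap, the filament protein of astrocytes and adult stem cells, was at 111 and 170 CPM. S100b, a calcium-binding protein of more mature astrocytes, had no UMI in either library, and Agt had 0 CPM in WT and 1.19 in cKO. With every cell thinned to 1000 UMIs, Aldoc was found in 29.7% of selected WT cells and 35.7% of selected cKO cells, against 0.47% and 0.407% of excitatory neurons, here cells with at least 3 UMIs of Neurod2 and Neurod6 and none of Slc1a3. Without thinning the shares were 46.8% and 63.4%, against 4.53% and 3.1% of the neurons, whose median depths were 8357 and 8743 UMIs. The selected cells are thus cells low in Aqp4, Aldh1l1 and Pla2g7 rather than cells free of astrocyte transcripts. For a part of them, the cells rich in Tubb3 described below, the name of radial glia was not borne out.

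Against all other kept cells, 278 of 12976 genes (2.14%) were at least 2-fold higher in the selected cells of both libraries and 456 (3.51%) were at least 2-fold lower. These differences follow from the choice of the cells and are given without a test. Set ratios are log2 ratios of CPM + 10 here and in the next comparisons. Gas1, a membrane co-receptor for Sonic hedgehog that is linked to growth arrest, led the list. It stood at 559 CPM against 61.0 in WT and at 1089 against 82.9 in cKO, log2 ratios of 3.00 and 3.56. Thrsp, a lipogenic nuclear protein, stood at 217 against 18.7 CPM in WT and 84.6 against 4.16 in cKO. Notch2, a Notch receptor, stood at 148 against 25.4 CPM in WT and 271 against 30.7 in cKO. Hopx, a homeodomain protein of outer radial glia and of quiescent stem cells, stood at 220 against 47.6 CPM in WT and 408 against 33.5 in cKO. The other leading genes were E130114P18Rik, the progenitor factor Sox21, 1500015O10Rik (the peptide Ecrg4), Efhd2, Igfbp5, 2810459M11Rik, the antiproliferative gene Btg2, the glial factor Sox9, Zic5, Plpp3 and Gfap, with log2 ratios of at least 1.89 in both libraries. Several of these genes were higher still in the cells that failed the astrocyte limit alone, described next. There Plpp3 was at 1708 CPM in WT and 1913 in cKO, against 754 and 829 in the selected cells, and Sox9 at 573 and 608 against 376 and 420. Gfap, Notch2, Sox21 and 2810459M11Rik were also higher there in both libraries, and Hopx in WT alone. In the cells that failed the proliferation limit alone, Gas1 was at 452 CPM in WT and 726 in cKO, within 2-fold of the selected cells. E130114P18Rik, Sox21, Efhd2 and Sox9 were also within 2-fold there, and Sox21 and Zic5 were higher there in cKO. The other leading genes were at least 2-fold higher in the selected cells in WT, in cKO or in both. Against all other kept cells, 16 of the 22 radial glia genes were at least 2-fold higher in both libraries and none lower. In the early astrocyte list this held for 12 of 25 and in the Notch list for 8 of 22.

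A first set for comparison failed the astrocyte limit alone. There were 531 such astrocyte-gate cells in WT and 361 in cKO, with medians of 6771 and 8660 UMIs. Of the genes tested, 44 of 6997 genes (0.629%) were at least 2-fold higher in the selected cells of both libraries, and 125 (1.79%) were at least 2-fold lower. The leading genes on the high side included several of neurogenic progenitors and of DNA replication. Igfbpl1, a binding protein of newborn neurons and their progenitors, stood at 333 against 46.4 CPM in WT and 175 against 31.4 in cKO. Mycn, a growth-promoting transcription factor, stood at 158 against 29.4 CPM in WT and 155 against 29.9 in cKO. Insm1, a zinc finger protein that drives progenitors towards neurogenic division, stood at 218 against 18.8 CPM in WT and 120 against 22.6 in cKO. Mcm5, Mcm2, Sp9 and Lima1 were further leading genes. Mcm2 and Mcm5 are subunits of the helicase that opens DNA for replication.

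The leading genes on the low side included several of glia. Fabp7 stood at 4206 against 20175 CPM in WT and 4014 against 12950 in cKO. Slc4a4, a bicarbonate transporter of astrocytes, stood at 69.3 against 419 CPM in WT and 57.2 against 297 in cKO. Sparcl1, a secreted matrix protein of astrocytes, stood at 306 against 1921 CPM in WT and 547 against 1929 in cKO. Plat, Luzp2, Trim9, Agt and Abhd3 were the other leading genes. The median log2 ratios of the early astrocyte list were -1.41 in WT and -1.23 in cKO. The astrocyte-gate cells were chosen for astrocyte genes and some members, such as Agt, reached the minimum count through them, so this is a description of the choice. The radial glia list also had its changes on this side, with 6 of 22 genes lower, none higher and medians of -0.85 and -0.56. The G1/S and replication list went the other way, with 6 of 13 higher, none lower and medians of 1.31 and 0.95. Hes5 was at 254 against 692 CPM in WT and 217 against 370 in cKO, while Sox2 was nearly level at 797 against 940 and 890 against 974.

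The next set failed the proliferation limit alone and held 84 cycling-gate cells in WT and 66 in cKO, with medians of 10788 and 12414 UMIs. In the selected cells of both libraries 63 of 3028 genes (2.08%) were at least 2-fold higher than in this set and 161 (5.32%) were at least 2-fold lower. The genes of the G2/M list were lower, with medians of -3.57 and -3.80. They reached the minimum count through the cycling-gate cells, which were chosen for proliferation genes, so this is a description of the choice. Ccnb1, the mitotic cyclin, stood at 6.02 against 334 CPM in WT and 3.58 against 467 in cKO. Cdk1, its kinase, stood at 10.5 against 385 CPM and 19.1 against 507. Ube2c, Tpx2, Spc25, Cks2, Prc1 and Ccna2 were the other leading genes on this side. They act in mitosis or at its onset. Clu, a secreted chaperone, was the leading gene on the high side at 214 against 10.5 CPM in WT and 439 against 46.4 in cKO. Aldoc, Gfap, Fgfbp3, Sparc, Cst3, 1500015O10Rik and Nkain4 followed. By list, 9 of 14 early astrocyte genes and 5 of 20 radial glia genes were at least 2-fold higher in both libraries, and none was lower.

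**Figure D2:**
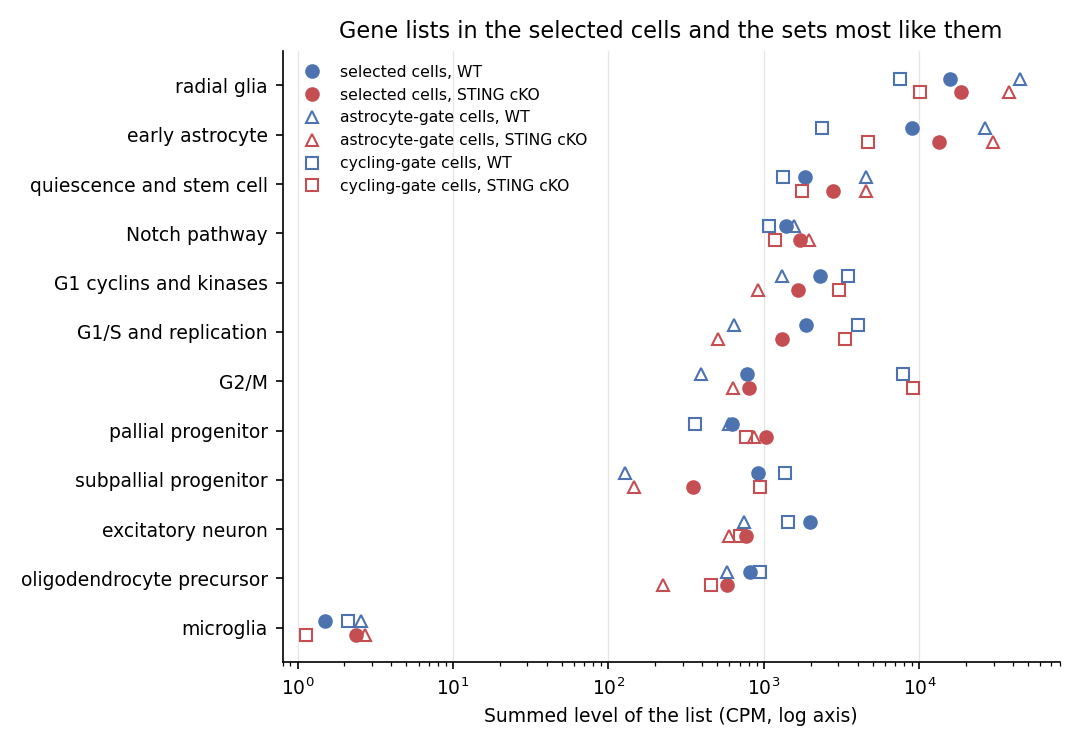
Summed level of 12 gene lists (horizontal axis, CPM, logarithmic) in the selected cells (filled circles), the astrocyte-gate cells (triangles) and the cycling-gate cells (squares) of the WT and cKO libraries. For the radial glia, early astrocyte, G1 cyclin and replication lists the selected cells lie between the other sets, and their G2/M sums of 780 and 802 CPM lie far under the 7882 and 9037 of the cycling-gate cells.

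The sums put the selected cells between these sets on several axes. Radial glia transcripts summed to 7515 CPM in WT and 10024 in cKO in the cycling-gate cells, below the selected cells, which in turn lay below the astrocyte-gate cells. Transcripts of the G1/S and replication list summed to 1857 CPM in selected WT cells and 1301 in selected cKO cells, above the 637 and 509 of the astrocyte-gate cells and below the 4050 and 3306 of the cycling-gate cells. The G1 cyclins and kinases (Ccnd1, Ccnd2, Ccnd3, Cdk4 and Cdk6) summed to 2281 CPM in WT and 1667 in cKO.

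The selected cells were not uniform. The 40 WT and 43 cKO cells with at least 3 UMIs of Mcm2 to Mcm7 and Pcna were split off by genes of the replication list, which summed to 3329 and 2459 CPM in them, so this level is a description of the split. Their median depths were 8286 and 8719 UMIs against 4641 and 6915. They held Fabp7 at 1834 against 6592 CPM in WT and 2760 against 5045 in cKO. Hopx was found in 35 WT and 52 cKO cells and Gfap in 32 and 32. The cells with Hopx included 22 of the 32 WT cells with Gfap and 25 of the 32 cKO cells with Gfap. Cells with a Gfap UMI held early astrocyte transcripts at 15419 CPM in WT and 22147 in cKO, against 6324 and 9478 in those without.

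Olig1 and Olig2, transcription factors of oligodendrocyte precursors and of ventral and dividing progenitors, marked 38 WT and 47 cKO cells. Sox10 and Cspg4, which mark committed precursors, were at 6.02 and 3.01 CPM in WT and 1.19 and 1.19 in cKO, and Pdgfra was absent by the rule. Cells with Olig1 or Olig2 carried Egfr, a growth factor receptor of activated stem cells, at 134 CPM in WT and 133 in cKO, against 7.44 and 40.5 in those without. After thinning to 1000 UMIs Olig1 or Olig2 was found in 26.1% of WT and 27.7% of cKO cells, against 3.45% and 0% of microglia. The latter was 0 of 32 cells, where 3 cells would make 9.38% and the Clopper-Pearson interval reaches 10.9%. Before thinning the shares of selected cells were 34.2% and 42%, against 8.47% and 3.12% of microglia, whose median depths were 10498 and 12470 UMIs. Astrocyte-gate cells showed 27.1% in WT and 14.4% in cKO after thinning, and 58.4% and 44% before. Cycling-gate cells showed 39.3% and 25.8% after thinning, and 59.5% and 69.7% before. These transcripts were thus not particular to the selected cells.

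Cells with a transcript of Dlx1, Dlx2, Dlx5, Dlx6 or Dlx6os1 held fewer glial and more neuronal transcripts than the other selected cells. The Dlx genes encode homeodomain factors of the ganglionic eminences, which produce GABA neurons. There were 41 such cells in WT, 36.9% of the selected cells, and 16 in cKO, 14.3%. Microglia, which should lack these genes, showed 20.3% and 25% at their greater depth, so the cKO share was not above this background and a Dlx UMI alone was not read as expression. The transcripts that went with it are given as a description. In WT these cells held Fabp7 at 1955 CPM against 6063 in the other selected cells, Aldoc at 167 against 717, and Tubb3, a neuronal tubulin, at 1419 against 261. In cKO they held Fabp7 at 1066 against 4627 CPM, Aldoc at 208 against 887, and Tubb3 at 1115 against 183. Of the 25 WT cells with at least 5 Tubb3 UMIs 22 had a Dlx UMI, as did 8 of the 9 such cKO cells. The cells with at least 5 Tubb3 UMIs held the radial glia list at 4472 CPM in WT and 3915 in cKO. The other selected cells held it at 20383 and 20354 CPM, and all other kept cells at 6080 and 4162. The name of radial glia was thus not borne out for these Tubb3 cells. The cells with a Dlx UMI carried 81.8% of the Tubb3 UMIs of all selected WT cells and 98.7% of those of Gad2, a GABA-synthesising enzyme, while they held 45.2% of all UMIs. In cKO they carried 55.9% and 94.4% of these UMIs and 17.2% of all UMIs. A Tubb3 UMI was found in 77.5% of the selected WT cells and 69.6% of the selected cKO cells, against 79.7% and 65.6% of microglia. After thinning to 1000 UMIs the shares were 39.6% and 16.96%, against 12.1% and 21.9% of microglia, so in cKO Tubb3 detection was not above this background. Whether droplets with more than 1 cell contributed was not tested in cKO, where the doublet caller had not worked.

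The share of selected cells was 1.64% of kept cells in WT (1.35% to 1.97%) and 1.84% in cKO (1.52% to 2.21%), a difference of 0.202 percentage points (-0.251 to 0.663). The astrocyte-gate cells made up 7.85% in WT and 5.94% in cKO, a difference of -1.91 points (-2.78 to -1.03). Among selected and astrocyte-gate cells together the selected cells were 17.3% in WT (14.4% to 20.4%) and 23.7% in cKO (19.9% to 27.8%). The cycling-gate cells made up 1.24% and 1.09%. After thinning to 3000 UMIs the selected share was 2.58% in WT and 3.74% in cKO, a difference of 1.16 points, with cells under 3000 UMIs left out. Whether depth or the loss of these cells moved the values was not tested.

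Between the libraries, 3279 genes had at least 50 UMIs in the selected cells of either library. Of these, 82 (2.5%) were higher in cKO by at least 2-fold on the log2(CPM + 10) scale with separate Poisson intervals, and 110 (3.35%) were lower. Without replicates these are counts by a rule of size, not tests. With TMM scaling the counts were 114 and 91, so the split between higher and lower depended on the scaling. The median log2 ratio of all genes tested was 0.09. A gene that reached 50 UMIs through 1 library alone had to be higher there in UMIs, so counts and medians over the tested genes of a list are descriptions. Fold changes of single genes are given next as log2 ratios of CPM with their counting intervals. Ratios and list medians after thinning to 3000 UMIs come from the 155 WT and 201 cKO cells that the rule then picked anew. Some of these cells may exceed a limit at full depth. Such values thus do not check depth alone in the same cells.

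**Figure D3:**
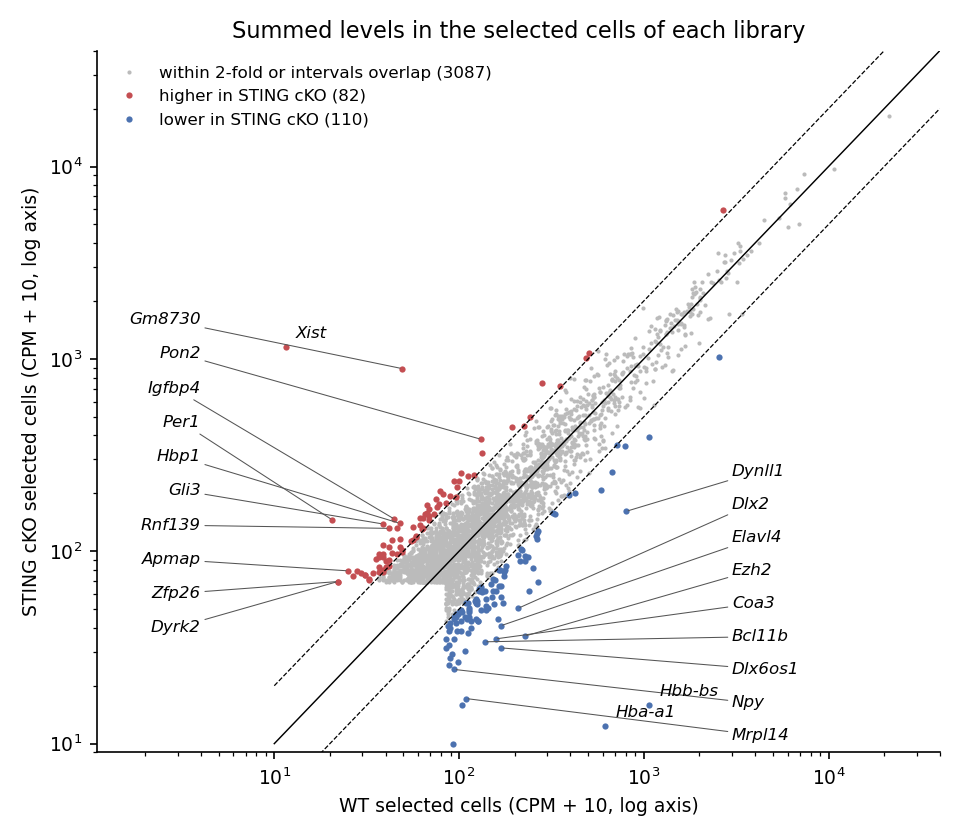
Level of each of the 3279 genes in the selected cells of WT (horizontal axis) and cKO (vertical axis), both as CPM + 10 on logarithmic axes, with dashed lines at 2-fold. Red points are the 82 genes higher and blue points the 110 genes lower in cKO by the rule of size. The named leading genes are labelled together with Xist and the haemoglobin genes Hba-a1 and Hbb-bs, whose WT UMIs came almost all from 1 cell.

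Several of the leading genes had like ratios in every set of cells that was compared. Gm8730 was at 39.2 CPM in WT and 881 in cKO, a log2 ratio of 4.49 (3.93 to 5.12), found in 23 of 111 and 107 of 112 cells. It is annotated as a processed pseudogene at chr8:102864845-102865798 (GRCm38), 98.7% identical over 954 bases to the ribosomal protein gene Rplp0, so its reads may not be separable from those of Rplp0. Its ratio was 4.46 in the astrocyte-gate cells, 4.36 in the cycling-gate cells and 4.72 in the excitatory neurons. Ezh2, the methyltransferase of Polycomb repressive complex 2, was at 217 CPM in WT and 26.2 in cKO, a log2 ratio of -3.05 (-3.77 to -2.39). It had UMIs in 63 WT and 20 cKO cells. Its ratios were -3.32 in the astrocyte-gate cells, -3.08 in the cycling-gate cells and -2.36 in the neurons. In microglia Ezh2 was found in 23 of 59 WT cells (39.0%) and 4 of 32 cKO cells (12.5%). After thinning to 3000 UMIs these shares were 20.4% (10.6% to 33.5%) and 6.45% (0.79% to 21.4%). Whether transcripts of other cells gave these microglial UMIs was not tested. Among the other subunits tested were Suz12, at 72.3 and 81.0 CPM, and Rbbp4, at 253 and 259 CPM. Of the 4 tested genes of the Polycomb list 1 was lower by the rule, Ezh2, and none higher. The ratio was above 0 for 2 of them and the median was -0.06. Eed was at 30.1 and 27.4 CPM, under the minimum count.

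Mrpl14, a protein of the mitochondrial ribosome, was at 99.4 CPM in WT and 7.15 in cKO, and Coa3, a factor for cytochrome oxidase assembly, was at 148 and 25.03 CPM. Their log2 ratios were -3.80 and -2.56 in the selected cells, -2.56 and -2.32 in the astrocyte-gate cells and -3.08 and -2.25 in the neurons. Dynll1, a dynein light chain, was at 794 CPM in WT and 151 in cKO, a ratio of -2.39, beside -2.09 and -2.06 in those sets. Parts of Dynll1 match 81 other genes at 95% or more, and Mrpl14, Coa3 and Ezh2 overlap genes on the opposite strand, so the counting of these genes is uncertain. The same overlap holds for Rnf139, Zfp26 and Hbp1 and, among the other genes described, for Pax6, Hopx, Gfap, Nrarp, Sp9, Lima1, Sparcl1, Nkain4, Ube2c, Prc1, Ccna2, E130114P18Rik and 1500015O10Rik. Dyrk2, a kinase, was at 12.05 CPM in WT and 59.6 in cKO, and its ratio of 2.31 stood beside 2.03 in the astrocyte-gate cells and 2.24 in the neurons. Apmap was at 15.1 and 69.1 CPM, Zfp26 at 12.05 and 59.6, Rnf139, an E3 ubiquitin ligase, at 31.6 and 122, and Hbp1, a repressor that slows cell cycle entry, at 37.6 and 130. Pon2, a membrane antioxidant enzyme, was at 122 CPM in WT and 372 in cKO, a ratio of 1.61 (1.25 to 1.98), beside 0.50 in the astrocyte-gate cells and -1.04 in the neurons. With each cell thinned to 3000 UMIs before selection, the log2 ratio of CPM + 10 fell under 2-fold for Pon2 (0.70 in place of 1.53) and Rnf139 (0.95).

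**Figure D4:**
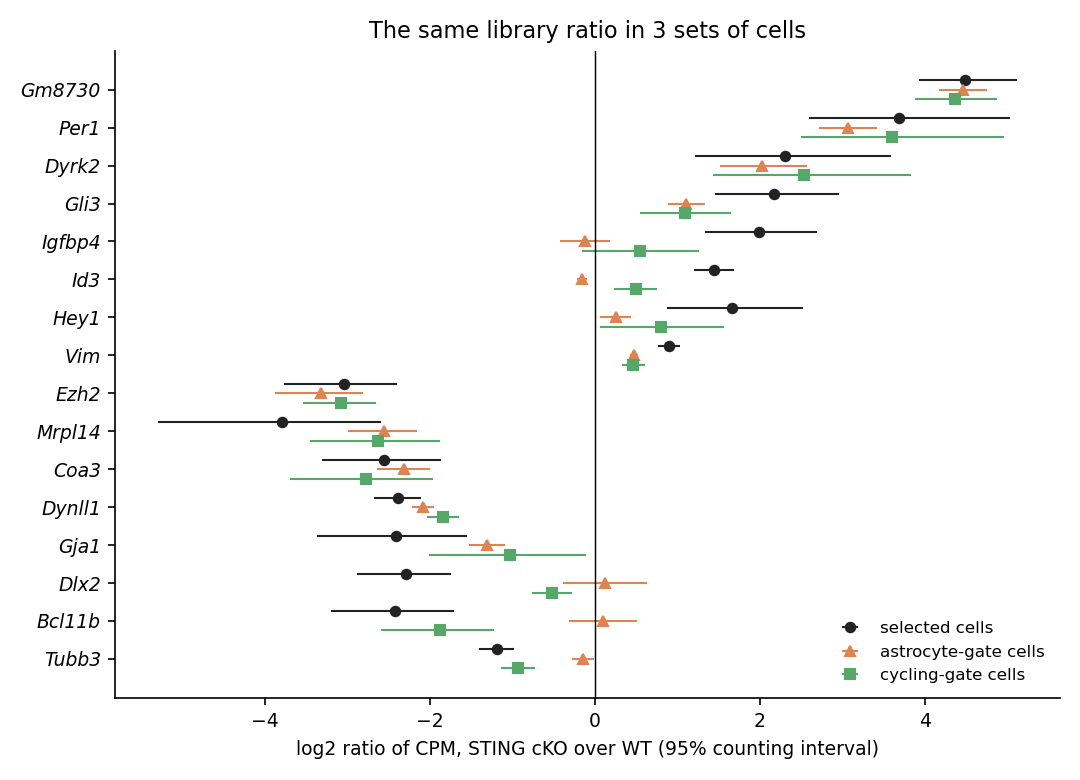
Log2 ratio of CPM, cKO over WT, for 16 genes (horizontal axis) with 95% counting intervals in the selected cells (circles), the astrocyte-gate cells (triangles) and the cycling-gate cells (squares). Gm8730, Ezh2, Coa3 and Dyrk2 sit at like values in all 3 sets, while Igfbp4, Id3, Dlx2 and Bcl11b sit away from 0 in the selected cells and near 0 in the astrocyte-gate cells.

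Of the 22 genes of the radial glia list 2 were higher, none was lower, and the median log2 ratio of CPM + 10 was 0.26. The ratio was above 0 for 17 of them, but the median of all genes tested was also above 0, at 0.09. The share of all genes tested with a ratio above 0 is not given, so this count is a description. The higher genes were Gli3 and Phgdh. Gli3, the repressor that transmits Sonic hedgehog signals and patterns the dorsal forebrain, was at 28.6 CPM in WT and 129 in cKO, a log2 ratio of 2.17 (1.46 to 2.96). It was found in 18 WT and 60 cKO cells, and its ratio was 1.11 in the astrocyte-gate cells and 1.09 in the cycling-gate cells. Phgdh, the first enzyme of serine synthesis, was at 342 CPM in WT and 716 in cKO. After thinning to 3000 UMIs neither was past 2-fold, with log2 ratios of CPM + 10 of 0.96 for Gli3 and 0.69 for Phgdh. Vim had a ratio of 0.90 (0.77 to 1.03), just inside 2-fold. Fabp7 had a ratio of -0.07, Sox9 of 0.16, Hopx of 0.89, Notch1 of 0.69 and Ednrb, an endothelin receptor, of -0.88.

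The early astrocyte list had 4 higher and 1 lower of 18 tested genes and a median of 0.51. Cst3 was at 2662 CPM in WT and 5931 in cKO, Clu at 214 and 439, Mt1, a metallothionein, at 477 and 999, and Htra1, a secreted protease, at 51.2 and 139. Gja1, the main gap junction protein of radial glia and astrocytes, went the other way at 88.8 CPM in WT and 16.7 in cKO, a ratio of -2.41 (-3.37 to -1.55), beside -1.30 in the astrocyte-gate cells. The log2 ratio of CPM + 10 fell under 2-fold for Clu (0.16 in place of 1.00) and Mt1 (0.54 in place of 1.05) with at least 1000 genes and at most 5% mitochondrial UMIs, and for Cst3 (0.83 in place of 1.15) with at least 3 Slc1a3 and 3 progenitor UMIs. The median of the list fell to 0.04 after thinning to 3000 UMIs. Of the quiescence and stem cell list 1 of 7 tested genes was higher, with a median of 0.21. This was Id3, an inhibitor of basic helix-loop-helix factors that responds to BMP signals, at 271 CPM in WT and 735 in cKO, a ratio of 1.44 (1.20 to 1.69) in 38 WT and 70 cKO cells. The Id3 ratio was -0.16 in the astrocyte-gate cells. After thinning to 3000 UMIs the log2 ratio of CPM + 10 of Id3 was 0.87 in place of 1.41, so it no longer passed 2-fold. Cdkn1a, the cell cycle inhibitor p21, was at 9.03 and 44.1 CPM but under the minimum count.

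Of the Notch list 1 of 8 tested genes was higher, with a median of 0.71. Under the alternatives this median ranged from 0.13 to 1.01. It was lowest with at least 20 UMIs per gene, where the median of all genes tested was 0.03. Hey1, a target gene of Notch, was at 25.6 CPM in WT and 81.0 in cKO, a ratio of 1.66 (0.88 to 2.52), beside 0.25 in the astrocyte-gate cells. After thinning to 3000 UMIs its log2 ratio of CPM + 10 was 0.83 in place of 1.35, under 2-fold. Hes1, also a target gene, had a ratio of -0.72 (-1.25 to -0.20). The receptors Notch1 and Notch2 were at 196 and 148 CPM in WT and at 316 and 271 in cKO, within 2-fold. Nrarp, a feedback inhibitor, was at 114 and 231 CPM. Of the growth factor receptors and targets Gli3 was the only one of 6 tested genes past 2-fold, and the median was 0.51.

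The 18 genes of the circadian clock list summed to 404 CPM in WT (357 to 455) and 955 in cKO (890 to 1023). The rise was not particular to the selected cells. The sums were 566 and 1135 CPM in the astrocyte-gate cells, 256 and 565 in the cycling-gate cells, 195 and 348 in the neurons and 193 and 254 in microglia. In the selected cells the following was seen. Of the 6 tested genes 4 were higher and none lower, but all except Tef reached the minimum count through cKO alone. Clock proteins form a feedback loop in which CLOCK and ARNTL switch on the Period and Cryptochrome genes, whose products switch them off again. Per1, a Period gene that also answers glucocorticoids, was at 10.5 CPM in WT and 136 in cKO, a log2 ratio of 3.69 (2.60 to 5.03), in 6 WT and 65 cKO cells. Its ratio was 3.06 in the astrocyte-gate cells, 3.60 in the cycling-gate cells and 1.32 in the neurons. In microglia Per1 was found in 6 of 59 WT cells (10.2%) and 16 of 32 cKO cells (50%). After thinning to 3000 UMIs these shares were 3.70% (0.45% to 12.7%) and 12.9% (3.63% to 29.8%). Whether transcripts of other cells gave these microglial UMIs was not tested. Per3 was at 54.2 and 138 CPM, Tef, an output factor of the clock, at 75.3 and 169, and Bhlhe40, a clock repressor, at 24.1 and 66.7. Per3 overlaps Camta1 on the same strand and Tef overlaps a gene on the other, so their counting is uncertain. In the cells without a Dlx UMI, Per3 and Tef were under 2-fold, with log2 ratios of CPM + 10 of 0.82 and 0.72. Per2 was at 1.51 and 27.4 CPM, under the minimum count. Arntl was at 28.6 and 46.5 CPM and Clock at 42.2 and 79.8. The 20 genes of the glucocorticoid and fasting response list summed to 1126 CPM in WT (1047 to 1210) and 2030 in cKO (1934 to 2128). They also summed to 1986 and 3554 CPM in the astrocyte-gate cells and 576 and 1413 in the cycling-gate cells. The neurons were at 376 and 593 CPM, and microglia nearly level at 1501 and 1487. Much of the sums in the selected cells came from the metallothioneins Mt1, at 477 and 999 CPM, and Mt2, at 179 and 353. Of 9 tested genes 3 were higher, Klf9 at 45.2 and 104 CPM, Arrdc4 at 16.6 and 64.4, and Mt1. Klf9, Arrdc4, Klf15, Ddit4, Nr3c1 and Tsc22d3 reached the minimum count through cKO alone. Fkbp5 and Sgk1, further glucocorticoid targets, were at 21.1 and 10.5 CPM in WT and at 11.9 and 9.53 in cKO. The hour at which the tissue was taken is not given in the sources used here, and its part in these values was not tested.

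Promoters of Per1, Per3 and Tef were searched for the E-box CACGTG, the letters bound by CLOCK and ARNTL, which read the same on both strands. Of 32851 mouse promoter windows of 250 bases 6.02% held it. The first start of Per1 (chr11:69098699-69098948, plus strand) and both starts of Tef (chr15:81802423-81802672 and chr15:81811164-81811413, plus strand) held 1 each, while the windows of the second start of Per1 and of Per3 had no match to these letters. The windows with a match are shown because they belong to genes of this list that were higher in cKO. Capitals mark the E-box, and sequences and starts are those of RefSeq on GRCm38.p6. A match describes the letters only.
Per1, first start: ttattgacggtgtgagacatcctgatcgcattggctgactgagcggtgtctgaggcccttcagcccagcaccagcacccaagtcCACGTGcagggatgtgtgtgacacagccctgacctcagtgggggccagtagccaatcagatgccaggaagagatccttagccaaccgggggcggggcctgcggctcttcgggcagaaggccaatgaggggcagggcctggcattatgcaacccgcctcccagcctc
Tef, first start: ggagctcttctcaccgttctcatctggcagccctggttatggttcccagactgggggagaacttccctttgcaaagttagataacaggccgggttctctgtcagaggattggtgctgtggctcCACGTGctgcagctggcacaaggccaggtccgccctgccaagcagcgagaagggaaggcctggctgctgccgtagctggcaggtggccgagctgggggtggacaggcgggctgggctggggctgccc
Tef, second start: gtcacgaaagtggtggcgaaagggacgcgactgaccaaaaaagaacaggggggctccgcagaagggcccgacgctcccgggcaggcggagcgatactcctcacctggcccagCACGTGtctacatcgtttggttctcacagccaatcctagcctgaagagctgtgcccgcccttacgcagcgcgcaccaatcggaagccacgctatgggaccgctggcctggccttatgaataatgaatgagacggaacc

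Several genes of the ventral forebrain and of young neurons were lower in the cKO selection, though Dlx1, Dlx2, Bcl11b, Tubb3 and Stmn2 no longer passed 2-fold after thinning to 3000 UMIs. Of 4 tested subpallial progenitor genes 3 were lower and none higher, with a median of -1.43. The fourth, Sp9, was at 128 and 87.0 CPM, and Nkx2-1, under the minimum count, at 9.03 and 14.3. Dlx2 was at 199 CPM in WT and 40.5 in cKO, a log2 ratio of -2.29 (-2.88 to -1.74), in 29 WT and 10 cKO cells. Dlx1 was at 242 and 71.5 CPM and Gad2 at 114 and 42.9. Dlx6os1, a noncoding RNA that overlaps Dlx6 on the other strand, was at 160 and 21.5 CPM. In the astrocyte-gate cells the Dlx2 ratio was 0.12 and in the cycling-gate cells -0.52. All 5 tested genes of the excitatory neuron list were lower, with a median of -1.34. They were Bcl11b, a factor of deep-layer and striatal neurons, at 128 and 23.8 CPM, Tubb3 at 785 and 343, Stmn2 at 574 and 199, Dcx at 226 and 83.4 and Mef2c at 164 and 64.4. None of these is limited to excitatory neurons, and Slc17a7, the vesicular glutamate transporter, had no UMI. Elavl4, a neuronal RNA-binding protein, was at 158 and 31.0 CPM. Of 5 tested pallial progenitor genes none passed the rule, with a median of 0.65. Lhx2, a selector factor of the cortex, was at 363 CPM in WT and 683 in cKO, and Emx2 at 69.3 and 114. Neurog2, a neurogenic factor of pallial progenitors under the minimum count, went the other way at 34.6 and 4.77 CPM, 23 and 4 UMIs, a ratio of -2.86 (-4.85 to -1.31).

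Counts of cells gave the following. After thinning to 1000 UMIs, a UMI of the subpallial genes Dlx1, Dlx2, Gsx2 or Nkx2-1 was found in 18.0% (11.4% to 26.4%) of the WT selection and 4.46% (1.47% to 10.1%) of the cKO selection. The pallial genes Emx1, Emx2, Lhx2, Neurog2 and Dmrta2 were found in 34.2% (25.5% to 43.8%) of the WT selection and in 58.0% (48.3% to 67.3%) of the cKO selection. Microglia, which use neither group, showed 3.45% and 3.12% for the subpallial genes and 1.72% and 3.12% for the pallial genes. Excitatory neurons showed 2.31% and 1.70% for the subpallial genes, and 34.1% and 45.8% for the pallial genes, so pallial detection was higher in cKO there as well. Astrocyte-gate cells showed 3.58% and 4.16% for the subpallial genes and 40.3% and 48.5% for the pallial genes. Without thinning the selected cells showed 36.04% and 16.96% for the subpallial and 65.8% and 89.3% for the pallial genes, against 15.3% and 15.6% and 10.2% and 28.1% in microglia. For the subpallial genes the cKO share was thus near the microglial one with and without thinning. The Dlx genes alone were found in 22.5% and 6.25% of the selected cells after thinning, against 5.17% and 3.12% of microglia, so the cKO share was near this background. Without thinning, 30 WT and 6 cKO cells had more subpallial than pallial UMIs, and 61 and 96 had more pallial ones.

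**Figure D5:**
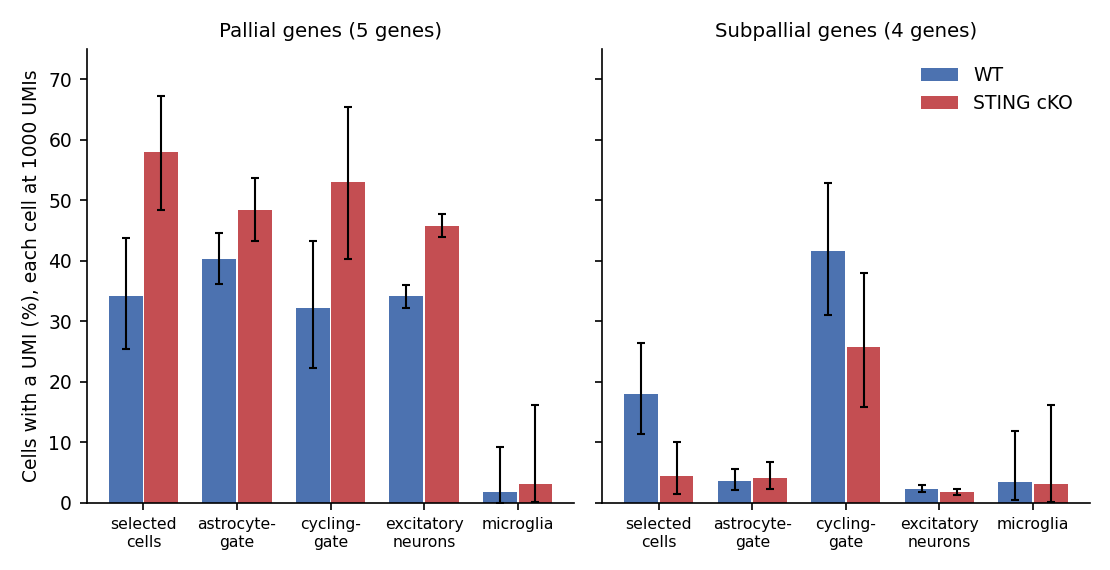
Share of cells with a UMI of the pallial genes (left) and subpallial genes (right) after thinning every cell to 1000 UMIs (vertical axis, %), by set of cells and library, with 95% Clopper-Pearson intervals. In the selected cells the pallial share is 34.2% in WT and 58.0% in cKO and the subpallial share 18.0% and 4.46%, and microglia give the background.

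Cells that held a Dlx UMI numbered 41 in WT and 16 in cKO. In the 70 WT and 96 cKO cells without one, a choice made after these values were seen, 48 genes were lower in cKO instead of 110, 33 of them among the 110. The genes higher in cKO numbered 69 in place of 82, and 42 of them were among the 82. The cells without a Dlx UMI held 363830 UMIs in WT and 694658 in cKO, against 664101 and 839098 in all selected cells. The number of genes that reached the minimum count in them is not given. Whether the smaller number of UMIs lowered the counts of called genes was not tested. In those cells Tubb3 was at 261 CPM in WT and 183 in cKO, Elavl4 at 96.2 and 23.0, Bcl11b at 30.2 and 5.76, and Ezh2 at 168 and 30.2. Gli3 was at 46.7 and 141 CPM, Per1 at 13.7 and 135 and Id3 at 388 and 825. After thinning to 3000 UMIs before selection the log2 ratios of CPM + 10 were -0.70 for Dlx2, -0.63 for Dlx1, -0.54 for Bcl11b, -0.69 for Tubb3 and -0.90 for Stmn2, so these genes no longer passed 2-fold. Single cells decided other genes. In WT 1 cell held 80.4% of the UMIs of Npy, a neuropeptide, at 84.3 and 14.3 CPM. In cKO 1 cell held 56.5% of the UMIs of Igfbp4, at 34.6 and 137 CPM. Without the highest cell of each library the log2 ratios of CPM + 10 were -0.36 for Npy and 0.79 for Igfbp4.

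In the G1/S and replication list 1 of 12 tested genes was lower, none higher, and the median was -0.40. Rrm2, a subunit of ribonucleotide reductase, was at 134 CPM in WT and 40.5 in cKO. None of the 5 G1 cyclins and kinases passed 2-fold, with a median of -0.43, and Ccnd2 was at 1111 and 756 CPM. Of the heat shock list 1 of 7 was lower, Hsph1 at 104 and 38.1 CPM, with a median of -0.56. Hsph1 was under 2-fold after thinning to 3000 UMIs (log2 ratio of CPM + 10 -0.46), and Rrm2 with at least 1000 genes and at most 5% mitochondrial UMIs (-0.97). None of 9 immediate early genes, 9 cholesterol synthesis genes, 3 glycolysis genes or 3 basal radial glia genes passed 2-fold, and their medians were 0.17, -0.25, -0.38 and 0.43. The immediate early genes, which respond to dissociation, summed to 3787 CPM in WT and 4562 in cKO. Of the 26 genes of the STING, NF-kB and interferon list 1 was plentiful enough to test, the inhibitor Nfkbia at 49.7 and 82.2 CPM, within 2-fold. Mb21d1, the gene of the DNA sensor cGAS, had 0 and 1 UMIs. The precision of these cells did not allow a statement on that pathway.

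Markers of other cell classes were scarce apart from those described. Microglial genes summed to 1.51 CPM in WT and 2.38 in cKO, endothelial genes to 12.05 and 22.6, mural genes to 64.7 and 31.0, fibroblast genes to 25.6 and 14.3, choroid plexus genes to 4.52 and 1.19, Cajal-Retzius genes to 31.6 and 3.58 and ependymal genes to 49.7 and 15.5. Haemoglobin and other erythroid genes summed to 1745 CPM in WT and 8.34 in cKO, and 1 WT cell held 99.1% of the WT UMIs. That cell was kept in all sums, and the erythroid genes were left out of the named genes. Genes of oligodendrocyte precursors summed to 819 and 577 CPM, and neither of the 2 tested, Olig1 and Olig2, passed 2-fold.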

How the data were processed

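Droplet single-cell RNA-seq (10x Genomics) was done on 1 WT and 1 cKO library of newborn mouse tissue, grouped by their labels. Per the file headers, the authors deposited raw UMI counts per gene and barcode, made with Cell Ranger 3.0.1, while the submitters' notes list Cell Ranger 2, STAR, Seurat and mm9. Whether counting used strand is not given in the sources used here. Members and gene lists were chosen with earlier results of these data known. Counts of the selected cells were summed per library and scaled to CPM, UMIs per 1e+06 UMIs. The kept WT and cKO cells had medians of 6653 and 7629 UMIs. A gene counted as higher or lower between libraries with at least 50 UMIs in either, a ratio of CPM + 10 of at least 2-fold and Poisson intervals apart. Between sets of cells at least 50 UMIs in either set and a 2-fold ratio had to hold in both libraries. Ratios carry conditional binomial intervals, shares Clopper-Pearson intervals and differences of shares Newcombe intervals.

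Named genes were the selection genes, the 15 highest against all other kept cells, the 8 highest and 8 lowest against each like set, the 10 highest and 10 lowest between libraries without mitochondrial, haemoglobin and sex-linked genes, and members of the lists. Some items are not reported here and were left out of the lists and names. Microglia were cells with at least 5 UMIs of C1qa, C1qb and C1qc. Gene positions came from GRCm38 and promoters from RefSeq, matched by symbol, and both differ from the mm9 of the notes. The promoter table has no entry used here for Hes1 or Hey1. Doublets were called with Scrublet but kept. Alternatives covered the cell filters, thinning, scaling, the gene minimum and some selection limits. The limits varied were those on Slc1a3 with Pax6, Hes5 and Sox2, on the astrocyte genes, on the proliferation genes and on Neurod2 and Neurod6. The limits on Pdgfra, Eomes, the Foxj1 group and the endothelial genes were not varied. Alternatives without the highest cell of each gene, and without cells holding a Dlx UMI, were added after seeing the data. Scripts were tested on simulated data. Tools were Python 3.11.15, numpy 2.4.6, scipy 1.17.1, pandas 2.3.3, scanpy 1.11.5, R 4.3.3, edgeR 4.0.16 (TMM factors only) and BLAST 2.17.0+.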

Additional observations from a re-analysis of the deposited data

How the results depend on the processing

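No paired analysis was possible because each genotype had 1 library and no test was run. Ratios under the alternatives were computed for 19 named and 33 other genes, and those of them called higher or lower in cKO kept their direction. Signs turned for the uncalled genes Emx2 (-0.21 to 0.80), Fabp7 (-0.39 to 0.07), Hes1, Hes5, Pax6, Slc1a3, Sox2 and Mcm3, and for the medians of the G1/S (-0.65 to 0.28), G2/M, Polycomb, STING, glycolysis and immediate early lists, on the log2(CPM + 10) scale. The selected share in WT and cKO became 3.65% and 4.77% with at least 1000 genes and at most 5% mitochondrial UMIs (difference 1.11 points), 1.08% and 1.29% with no cell filter, 1.005% and 1.22% with no astrocyte-gate UMI, 1.21% and 1.48% with no proliferation-gate UMI, and 2.58% and 3.74% after thinning to 3000 UMIs (difference 1.16 points). In WT it was 1.18% with at least 3 Slc1a3 and 3 progenitor UMIs and 1.34% with no Neurod2 or Neurod6 UMI. The 110 genes lower in cKO became 51 under the stricter cell filter, 69 with at least 3 UMIs, 70 after thinning and 48 without Dlx cells. With at least 20 UMIs per gene 154 were higher and 295 lower, with at least 100 they were 45 and 42, and with CPM + 1 125 were higher. After thinning, 31 of the 82 higher and 40 of the 110 lower genes were called again. The pallial share at 3000 UMIs was 58.5% in WT and 79.6% in cKO and the subpallial share 30.9% and 8.74%, and with no thinning these were 65.8%, 89.3%, 36.04% and 16.96%. The causes of these moves were not tested. Of 302 values of the 19 named genes 284 moved by less than the width of their counting interval, and of 371 list medians 306 moved by at most 0.25. The Ezh2 log2 ratio of CPM + 10 ranged from -3.00 to -2.14, Per1 from 2.58 to 3.57, Npy from -2.90 to -0.20 and Igfbp4 from 0.05 to 2.20.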
